A study of Rattus norvegicus with 14 samples.

Results

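Solute carriers are the membrane proteins that move small molecules across the membranes of the cell and of its organelles. Here they are all probe sets of the array whose platform gene symbol begins with Slc and a digit or with Slco. The rule found 90 probe sets for 71 genes, out of 4502 rows and 2670 genes with 1 symbol. Of the 90, 89 carried 1 gene symbol. The other one lists Slc25a51 under more than 1 gene identifier and is counted but not described.

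RNA came from the left lateral liver lobe of rats of 2 strains, Wistar and the strain that the labels call Kyoto. Orotic acid, an intermediate of pyrimidine synthesis, gives a reversible fatty liver when rats eat it, and the study follows that over days of feeding in both strains. The Wistar controls (n = 3) ate standard chow without it, and all other groups ate chow with 1% orotic acid. These were Wistar rats at day 3 (n = 2) and day 14 (n = 3), and Kyoto rats at day 1 (n = 2), day 3 (n = 2) and day 14 (n = 2). Age is not among the labels used here. Kyoto rats on plain chow and Wistar rats at day 1, both named in the extraction protocol, were not analysed here, so a strain difference below is always between fed rats. The labels do not state that each array is a separate animal, so p-values measure the spread between these samples, which may be in part technical.

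The liver takes bile salts, drugs, sugars, amino acids, nucleosides, fatty acids and metals from the portal blood through solute carriers of the hepatocyte surface. Further carriers of the inner mitochondrial membrane pass phosphate, nucleotides, citrate and acylcarnitines between mitochondria and cytosol. Members of the family are also used as marks of other organs, such as the noradrenaline transporter of nerve endings or the peptide transporter of the gut, and these are background genes in liver.

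All signals below are log2 values after quantile normalization between arrays. The floor was the 25th percentile of all values, a log2 signal of 6.85, and lower signals were raised to it. Below, "at the floor" means a signal at or under that percentile. It is treated here as background, but no separate measure of background was used. Levels of different genes are not compared with each other, because probe sets differ in how strongly they bind. Each difference is given with its standard error from limma and with a p-value adjusted over all 1909 tested features, with a threshold of 0.05. The comparison between the fed strains uses days 3 and 14, which both strains have, and leaves out Kyoto day 1. In bulk liver, fewer cells of a type and less RNA per cell cannot be told apart.

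Several arrays stood apart. The labels give each array's strain, day and diet but no replicate number, so the numbers used here were given in the order of deposit and only name arrays. An array labelled as a Wistar control, named Wistar control 2 here, had its highest correlation with a Kyoto array (Kyoto day 3 replicate 2, r = 0.960). On 79 other features that differ between the fed strains, with fed Wistar set at 0 and fed Kyoto at 1, its median position was 0.937, against 0.102 and 0.0553 for Wistar controls 1 and 3. It is kept in the group its label gives, and named differences against control are given with and without it. The median correlation of an array with the rest was lowest for Kyoto day 1 replicate 1 (0.895). Across feeding groups, Wistar day 14 replicate 3 paired most closely with Wistar control 3 (r = 0.970). These 3 last-named arrays hold no value in 374 or 375 rows, and Wistar day 14 replicate 3, Wistar control 3 and Wistar day 3 replicate 2 carry no lot batch in their labels.

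The hepatocyte markers were high on every array, with a log2 signal of 14.4 to 14.7 for Alb, the albumin gene. Their summed log2 level lay between 16.76 and 16.97 on all 14 arrays (6 of 7 markers with values, 0 past the threshold between the fed strains). Of the cholangiocyte markers with values, Epcam lay at the floor on all 14 arrays and Krt19 on 13. The neuron marker Syn1 (1 of 3 with values) lay at the floor on 9 arrays. Neutrophil markers (0 of 4 with values) and kidney tubule markers (0 of 3 with values) were not analysed here.

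**Figure D1:**
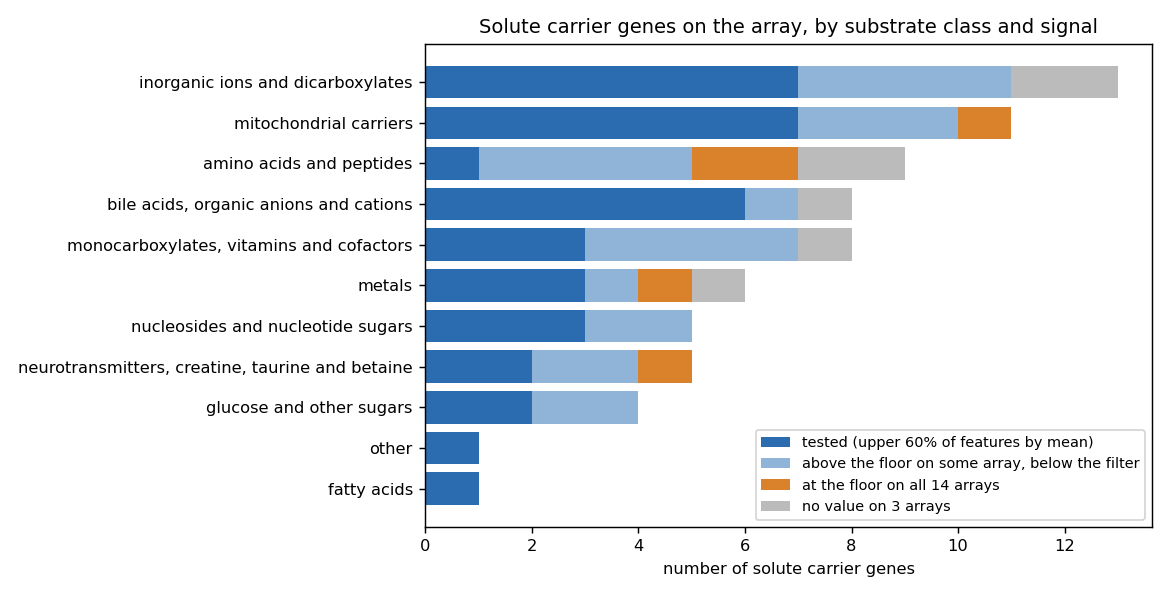
Number of solute carrier genes (horizontal axis, from 0) in each substrate class, split by signal on the 14 arrays into 4 colours. The 36 tested genes are mostly inorganic ion carriers (7), mitochondrial carriers (7) and bile acid and organic ion carriers (6), and 1 of the 9 amino acid and peptide carriers was tested.

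Of the 71 genes, 7 had only probe sets that are blank on 3 arrays. Another 5 lay at the floor on all 14 arrays, 23 lay above it on some array but under the filter on mean signal, and 36 were tested. The 5 genes at the floor are 7.81% of the 64 with values, against 9.24% of all features (294 of 3181). The 36 tested are 56.2% of them, against 60% of all features, and 56.2% were above the floor on every array, against 58.8%. On these measures the solute carriers stood close to the array as a whole.

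The 5 genes at the floor on every array are Slc15a1, the peptide transporter of the gut, Slc1a2, the glutamate transporter of glia, and Slc25a4, the adenine nucleotide carrier of heart and muscle, with Slc30a4, a zinc transporter, and Slc6a2, the noradrenaline transporter. Slc2a3, the glucose transporter of neurons, Slc41a3, Slc16a6 and Slc23a3 lay at the floor on 13 of 14 arrays. Slc2a3 was above it on Wistar control 1 alone, at 6.90. The genes with only blank probe sets are Slc7a3, Slc12a2, Slc5a3, Slc26a2, Slc1a1, Slc30a1 and Slc22a25. On the 11 arrays that do give a value, the highest deposited signal of the 9 blank solute carrier probe sets was 111, that of Slc30a1. The floor is a signal of 115 after quantile normalization, which left the blank rows out. The scales thus differ, and 111 is not firmly under the floor.

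None of the 36 tested members passed in any of the 8 comparisons (limma, Benjamini-Hochberg adjusted p). The adjusted test called 0% of all features in Wistar day 3 against control, Wistar day 14 against control, Wistar day 14 against day 3, Kyoto day 3 against day 1 and Kyoto day 14 against day 3, and in the strain by time interaction. It called 0.0524% in Kyoto day 14 against day 1 and 3.25% (62 of 1909) between the fed strains. The counts of members at an unadjusted p under 0.05 are therefore read beside the same share over all features.

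Over the 36 members, group means spanned 0.20 to 1.86 log2 from the lowest to the highest group, with a median of 0.51. The span was under 0.5 in 18 members and 1 or more in 8. The spread between replicates, pooled over the groups, had a median SD of 0.31. For many members the whole span over strain and time was thus near the scatter of replicate arrays.

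**Figure D2:**
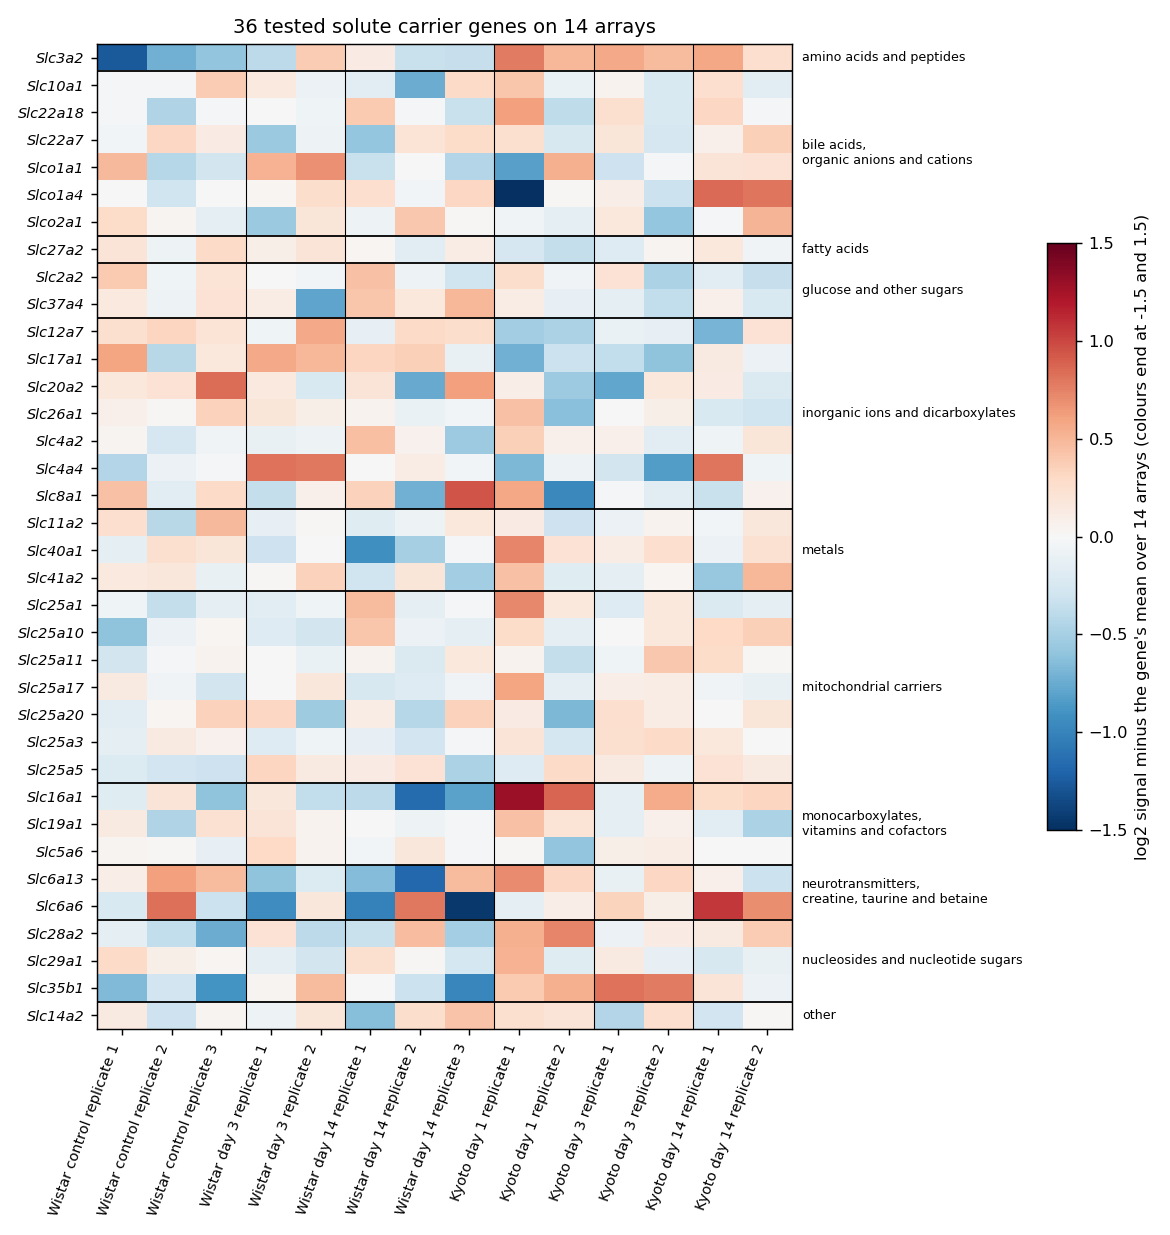
Log2 signal of each of the 36 tested solute carrier genes (rows, grouped by substrate class) on the 14 arrays (columns, grouped by strain and day), as the difference from that gene's own mean. Slc3a2 is blue in the 3 Wistar controls and red in all Kyoto columns, and Slco1a4 is darkest blue in Kyoto day 1 replicate 1 and red in both Kyoto day 14 columns.

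Amino acid carriers had the smallest share of tested genes of the substrate classes, 1 of 7 with values. Of 9 genes, 2 were blank, 2 lay at the floor on every array, 4 were under the filter and 1, Slc3a2, was tested. Slc3a2 encodes the heavy chain that carries several amino acid transporters to the cell surface. Slc7a5, the light chain that pairs with it for large neutral amino acids, was weak but above the floor on every array (6.97 to 7.90). Slc7a2, a carrier of cationic amino acids, ran from the floor to 7.91, and Slc3a1, another heavy chain, from the floor to 7.38. Slc15a4, a peptide and histidine carrier, ran from 6.96 to 7.86.

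Slc3a2 was lower in all 3 controls than on any of the 11 arrays of fed rats. Its log2 signal was 9.24, 9.77 and 9.90 in Wistar controls, 10.10 and 10.87 in Wistar day 3, and 10.61, 10.16 and 10.14 in Wistar day 14. In Kyoto rats it was 11.27 and 10.99 at day 1, 11.06 and 10.96 at day 3, and 11.08 and 10.74 at day 14. The Kyoto day 1 mean, 11.13 ± 0.20 (SD, n = 2), was the highest of the 6 groups and the Wistar control mean, 9.64 ± 0.35 (SD, n = 3), the lowest. A second probe set of the gene ran from 8.97 to 9.16 in controls and from 9.24 to 11.27 in fed rats. The groups did not overlap there either. The fed rats include the Kyoto strain, which has no controls here, so this separation mixes strain and feeding. How many of all features separate in this way was not counted.

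Against control, Slc3a2 differed by 0.85 ± 0.29 at Wistar day 3 (2 against 3 arrays, 1.8-fold, adjusted p = 0.300) and by 0.67 ± 0.26 at Wistar day 14 (3 against 3, 1.59-fold, adjusted p = 0.894), and neither passed. The 2 comparisons share their controls. Without Wistar control 2 the differences were 0.92 and 0.74. At day 3 the size rested on the replicates, with 0.46 without Wistar day 3 replicate 2 and 1.24 without replicate 1. Between the fed strains it differed by 0.57 ± 0.21, higher in Kyoto (adjusted p = 0.211). That was 0.37 without Wistar day 3 replicate 1.

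RefSeq lists 2 starts of Slc3a2 on the minus strand of GRCr8, at chr1:215048065-215048314 and chr1:215039671-215039920 for the 250 bases before each. They are shown because all arrays of fed rats lay above all controls for Slc3a2. Capitals mark CCACG, the short end of the endoplasmic reticulum stress element, searched on both strands. Each holds 1 match, 224 to 220 and 18 to 14 bases before its start. Matches stood in 27.2% of the 33469 RefSeq promoters of that length and in 46.9% of the 64 of solute carrier members (58 genes matched by symbol), so the match is a description of these letters only.
Slc3a2, upstream start: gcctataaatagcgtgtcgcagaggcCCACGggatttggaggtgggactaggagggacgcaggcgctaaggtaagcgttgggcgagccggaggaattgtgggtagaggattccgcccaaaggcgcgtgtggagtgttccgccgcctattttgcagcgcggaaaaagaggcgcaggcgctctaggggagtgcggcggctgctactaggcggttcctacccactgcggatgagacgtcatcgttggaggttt
Slc3a2, downstream start: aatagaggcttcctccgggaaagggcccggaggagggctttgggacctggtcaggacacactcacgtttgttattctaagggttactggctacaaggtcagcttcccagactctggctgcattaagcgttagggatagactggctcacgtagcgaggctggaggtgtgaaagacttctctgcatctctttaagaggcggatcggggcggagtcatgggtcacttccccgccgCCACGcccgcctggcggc

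Of the bile acid and organic ion carriers, 6 of 7 genes with values passed the filter, the largest share among the classes of more than 1 gene. Slc10a1, the sodium-dependent bile salt carrier of the sinusoidal membrane, ran from 11.05 to 12.21. Its group means stayed within 0.37 log2, from 11.58 ± 0.52 (SD, n = 3) in Wistar day 14 to 11.95 ± 0.37 (SD, n = 2) in Kyoto day 1, a span close to its replicate SD of 0.34. Slc22a7, an organic anion carrier, ran from 10.12 to 11.05, with group means from 10.38 in Wistar day 3 to 10.91 in Kyoto day 14. Slco2a1, which carries prostaglandins, ran from 11.14 to 12.23, and Slc22a18, an organic cation carrier-like gene, from 11.03 to 12.10. Slc22a5, the carnitine carrier, was under the filter, from the floor on Wistar control 1 to 8.41 on Kyoto day 1 replicate 2.

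Slco1a4, an organic anion transporting polypeptide of the hepatocyte surface, had the largest difference between days among the members. Single arrays gave 11.01, 10.72 and 11.02 in Wistar controls, 11.05 and 11.28 in Wistar day 3, and 11.28, 10.98 and 11.33 in Wistar day 14. Kyoto rats gave 9.07 and 11.03 at day 1, 11.12 and 10.70 at day 3, and 11.87 and 11.82 at day 14. Both Kyoto day 14 arrays were above every other array, and 1 of the 2 Kyoto day 1 arrays was far below every other array. The share of all features with a group of 2 arrays set apart in this way was not counted. The day 14 minus day 1 difference in Kyoto was 1.80 ± 0.45 (2 against 2 arrays, 3.48-fold, adjusted p = 0.152) and did not pass. It was 0.81 without Kyoto day 1 replicate 1. Leaving out replicate 2 made replicate 1 the lone array of its group, assumed to vary like the others, and gave 2.78 with an adjusted p of 0.000515. The day 3 minus day 1 difference of 0.86 ± 0.45 (adjusted p = 0.782) became -0.13 without Kyoto day 1 replicate 1, while leaving out replicate 2 instead gave 1.84 (adjusted p = 0.00536). Day 14 minus day 3, which does not use the day 1 arrays in its means, was 0.94 ± 0.45 (adjusted p = 0.971).

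Slco1a1, a related polypeptide, was weak here. The arrays read 8.15, 7.23 and 7.39 in Wistar controls, 8.19 and 8.35 in Wistar day 3, and 7.33, 7.66 and 7.23 in Wistar day 14. Kyoto rats gave the floor and 8.19 at day 1, 7.36 and 7.63 at day 3, and 7.85 and 7.88 at day 14. Kyoto day 1 replicate 1 was the lowest array for this gene as well as for Slco1a4. The Wistar day 14 minus day 3 difference was -0.87 ± 0.37 (adjusted p = 0.994), and the same in Kyoto minus Wistar, the strain by time interaction, was 1.24 ± 0.55 (adjusted p = 0.857). Neither passed.

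Slco1a1 and Slco1a4 lie on the minus strand of chromosome 4, and the 250 bases before their RefSeq starts are at chr4:176681993-176682242 and chr4:176495847-176496096 (GRCr8). They are shown because these related genes were lowest on the same array but had different courses over the groups. Capitals mark the 176 identical bases of 235 aligned, 74.9%, while either one aligned with Slc10a1 gave 62.1% and 60.4%. Whether the probe sets of either gene also bind the transcript of the other was not tested.
Slco1a1: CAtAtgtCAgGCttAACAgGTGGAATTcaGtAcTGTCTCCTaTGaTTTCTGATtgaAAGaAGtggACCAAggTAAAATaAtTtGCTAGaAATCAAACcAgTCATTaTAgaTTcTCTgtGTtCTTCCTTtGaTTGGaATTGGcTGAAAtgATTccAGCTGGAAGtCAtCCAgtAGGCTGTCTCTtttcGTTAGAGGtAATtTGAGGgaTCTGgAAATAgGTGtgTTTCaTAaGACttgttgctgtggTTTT
Slco1a4: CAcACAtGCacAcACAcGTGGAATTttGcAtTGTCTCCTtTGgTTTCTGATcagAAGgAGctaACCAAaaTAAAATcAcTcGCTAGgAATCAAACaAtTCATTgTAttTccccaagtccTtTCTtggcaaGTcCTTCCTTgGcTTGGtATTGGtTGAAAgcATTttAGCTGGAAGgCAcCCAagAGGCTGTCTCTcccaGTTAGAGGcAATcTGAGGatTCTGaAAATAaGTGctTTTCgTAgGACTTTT

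Other transporters of the hepatocyte outside the family were taken from a list of ABC, channel and pump genes. Of 25, 14 had values, 12 were tested and 1 passed in any comparison. This was Abcc2, the canalicular conjugate export pump, higher in fed Kyoto by 1.21 ± 0.31 (limma, adjusted p = 0.0455). Between the fed strains 3.25% of all features passed. The Abcc2 difference lies close to the threshold and was not recomputed under the alternatives. Abcb11, the bile salt export pump, differed by -0.06 ± 0.27 between the fed strains and by 0.97 ± 0.39 between Kyoto day 14 and day 1 (adjusted p = 0.445). Abcc3 lay at the floor on all 14 arrays. Of 20 regulators of transporter genes, 13 had values, 9 were tested and 0 passed in any comparison by the same limma fit. At an unadjusted p under 0.05 stood 1 of the 9 between the fed strains, against 14.4% of all features. Between Kyoto day 14 and day 1 it was 3 of the 9, against 10.2% of all features. Those 3, named after their values were seen, were the transcription factor genes Foxa2 (1.49 ± 0.47, adjusted p = 0.271), Cebpb (-0.95 ± 0.33, adjusted p = 0.354) and Foxa3 (-0.87 ± 0.33, adjusted p = 0.409). Foxa2 lay at the floor on 1 array, and its Kyoto day 1 mean, 7.02, was near the floor. The 3 differences were not recomputed without Kyoto day 1 replicate 1.

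Glucose carriers split into a pair with high signals and a pair near background. Slc2a2, the glucose transporter of the hepatocyte surface, ran from 9.47 to 10.38, with group means from 9.69 ± 0.12 (SD, n = 2) in Kyoto day 14 to 10.12 ± 0.23 (SD, n = 3) in Wistar controls. Slc2a1, the glucose transporter of red cells and many other cell types, ran from the floor to 7.98 and was highest on Kyoto day 14 replicate 2. Slc37a4 moves glucose 6-phosphate into the endoplasmic reticulum for hydrolysis. Log2 signals were 11.37 and 10.46 in Wistar day 3 and 11.66, 11.41 and 11.75 in Wistar day 14, against 11.40, 11.18 and 11.47 in controls. Wistar day 3 replicate 2 was the lowest of all arrays, and the day 14 minus day 3 difference of 0.69 ± 0.26 (adjusted p = 0.994) was 0.24 without it.

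Slc27a2, the only member of the fatty acid class, is a very long chain acyl-CoA synthetase of peroxisomes and the endoplasmic reticulum. Of the 36 tested members it had the smallest spread between replicates, with a pooled replicate SD of 0.15 and signals from 12.48 to 13.13. Both Kyoto day 1 arrays (12.58 and 12.48) were below every other array. The share of all features with such a separation was not counted. The fed strains differed by -0.08 ± 0.13 (adjusted p = 0.833).

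**Figure D3:**
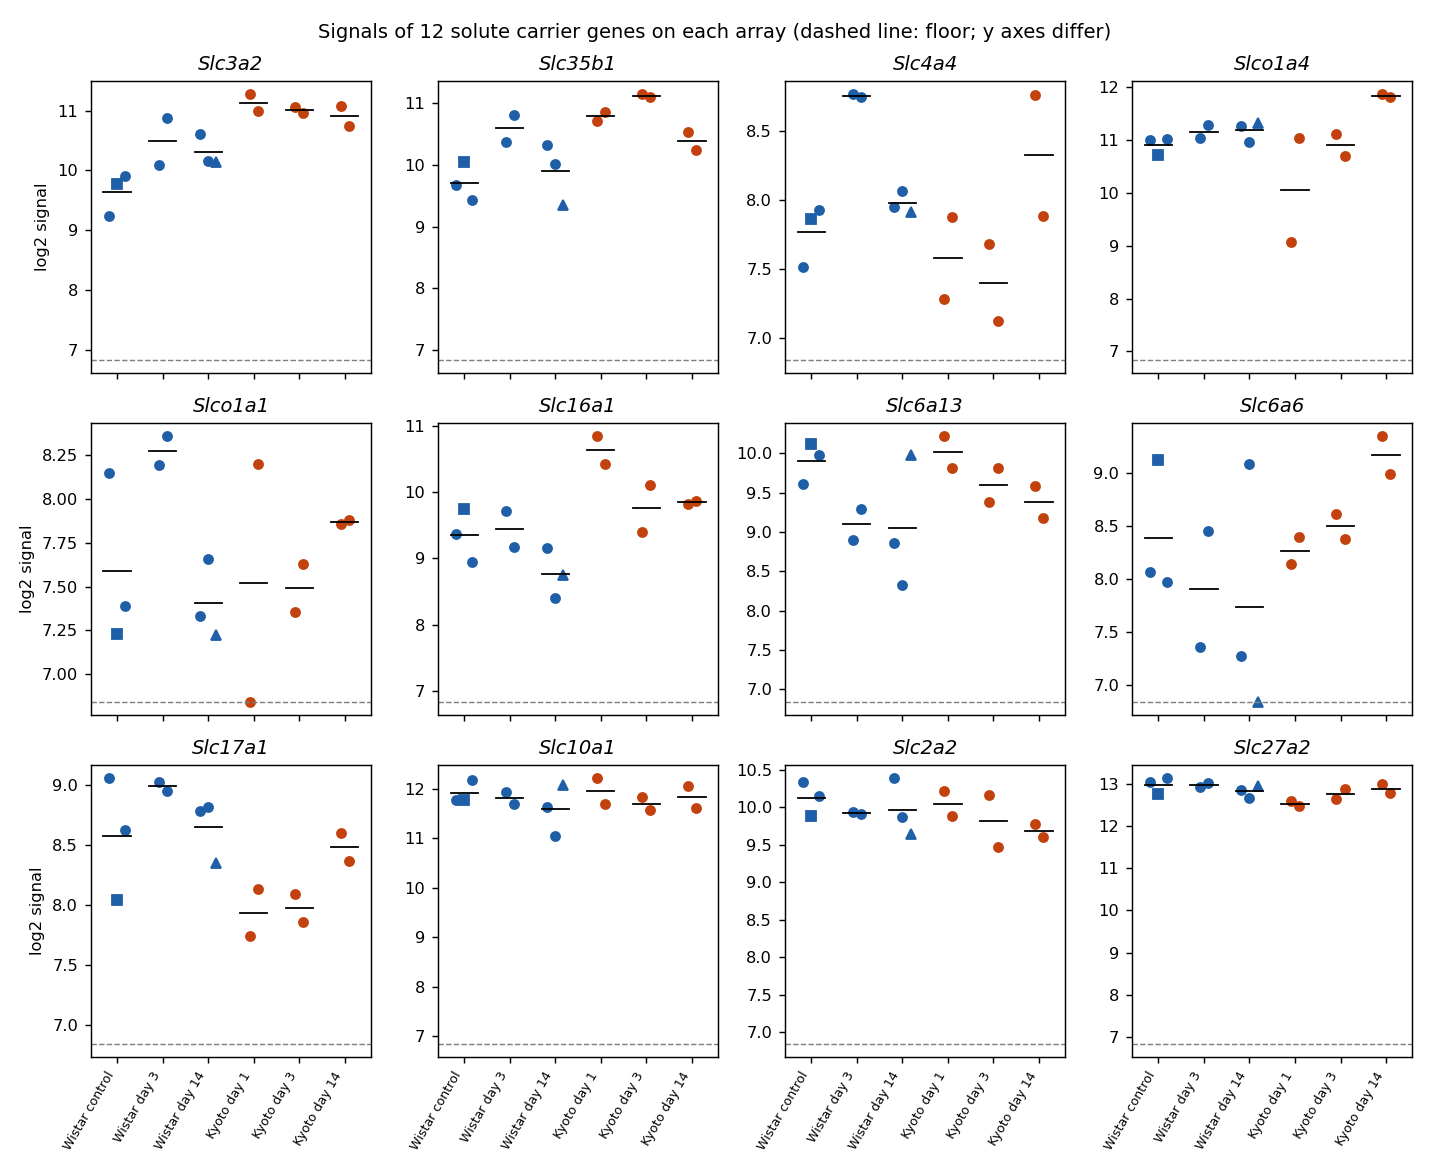
Log2 signal of 12 solute carrier genes on each of the 14 arrays by group, with Wistar in blue, Kyoto in orange, group means as black bars and the floor of 6.85 as a dashed line, and with vertical axes that differ between panels. The square is Wistar control 2 and the triangle Wistar day 14 replicate 3. Slc3a2 shows 3 controls under all fed arrays, Slco1a4 a single low array at Kyoto day 1, and Slc10a1 group means within 0.37 log2. Slc27a2 group means lie within 0.44 log2, with Kyoto day 1 the lowest.

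Among carriers of nucleosides and nucleotides, 3 of 5 genes were tested. Slc28a2, the sodium-driven carrier of purine nucleosides and uridine, is of interest in a pyrimidine load. Values by array were 9.31, 9.09 and 8.72 in Wistar controls, 9.68 and 9.07 in Wistar day 3, and 9.13, 9.93 and 8.95 in Wistar day 14. The Kyoto arrays read 10.10 ± 0.14 (SD, n = 2) at day 1, 9.38 and 9.59 at day 3, and 9.59 and 9.85 at day 14. Kyoto day 1 was the highest group, and the day 3 minus day 1 difference was -0.62 ± 0.34 (adjusted p = 0.797). Slc29a1, the equilibrative nucleoside carrier, ran from 8.67 to 9.46 with no group apart from the others, and Slc29a2 was near background, from the floor to 7.56.

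Slc35b1, a nucleotide carrier of the endoplasmic reticulum membrane, was among the members that varied most. Its log2 signal was 9.67, 10.04 and 9.44 in Wistar controls, 10.38 and 10.81 in Wistar day 3, and 10.33, 10.01 and 9.36 in Wistar day 14. In Kyoto rats it was 10.72 and 10.87 at day 1, 11.15 and 11.11 at day 3, and 10.53 and 10.25 at day 14. In each strain the day 3 mean was above the day 14 mean. The day 14 minus day 3 difference was -0.70 ± 0.29 in Wistar (adjusted p = 0.994) and -0.74 ± 0.32 in Kyoto (adjusted p = 0.971), and neither passed. In Wistar it was -0.43 without Wistar day 14 replicate 3 and -0.21 with the arrays of lot batch 1 only. Against control, Wistar day 3 differed by 0.88 ± 0.29 (adjusted p = 0.300), by 1.04 without Wistar control 2 and by 0.52 with lot batch 1 only. A second probe set gave 1.06 in that comparison, -0.94 and -0.85 from day 3 to day 14 in Wistar and Kyoto, and 0.73 between the fed strains, where the first gave 0.51 ± 0.22 (adjusted p = 0.278).

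Mitochondrial carriers, named here by family, had 7 of 11 genes tested and 1, Slc25a4, at the floor throughout. Slc25a5, the adenine nucleotide carrier of liver, was 11.94, 11.85 and 11.84 in Wistar controls and 12.46 and 12.28 in Wistar day 3, a difference of 0.49 ± 0.23 (adjusted p = 0.475), or 0.48 without Wistar control 2. With arrays centred on their medians instead that difference was 0.20. Slc25a3, the phosphate carrier, was the only member whose Kyoto arrays of days 3 and 14 (11.44, 11.50, 11.37 and 11.22) all lay above the fed Wistar arrays (11.01, 11.15, 11.08, 10.92 and 11.19). Its difference was 0.31 ± 0.16 (adjusted p = 0.405), and the controls, at 11.08, 11.34 and 11.27, overlapped both. Kyoto day 1, at 11.40 and 10.95, spanned the 2 strains. Such a separation with Kyoto higher held for 5.08% of all features, and with Kyoto lower for 3.77% of all features and 0 members.

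Slc25a1, which exports citrate for fatty acid synthesis, was highest in Kyoto day 1, at 11.68 and 11.11, and was 10.74 and 10.80 in Kyoto day 14. The difference of -0.62 ± 0.28 (adjusted p = 0.456) was -0.34 without Kyoto day 1 replicate 1. Slc25a10, the dicarboxylate carrier, ran from 9.49 to 10.51, and Slc25a11, the oxoglutarate carrier, from 9.62 to 10.38. Slc25a20, which exchanges acylcarnitines for carnitine, ran from 8.10 to 9.13. Slc25a17, a family member of peroxisomes, ran from 8.63 to 9.48. In the fed strain comparison 6 of the 7 were higher in Kyoto, with a median of 0.18 log2 against 0.04 over all features (6 of 7 also on the authors' scale and with centred arrays), and 0 of the 7 had an unadjusted p under 0.05 by limma.

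Monocarboxylate and vitamin carriers had 3 of 7 genes with values tested. Slc16a1 is the proton-linked carrier of lactate, pyruvate and ketone bodies. On its weaker probe set group means ran only from 8.61 in Wistar day 14 to 9.46 in Kyoto day 1. On the stronger one, described next, they had the widest span of all members, 1.86 log2. Single arrays gave 9.37, 9.74 and 8.95 in Wistar controls, 9.72 and 9.18 in Wistar day 3, and 9.16, 8.40 and 8.75 in Wistar day 14. Kyoto rats gave 10.84 and 10.42 at day 1, 9.40 and 10.11 at day 3, and 9.82 and 9.87 at day 14. Both Kyoto day 1 arrays were above every other array, but how many of all features have this pattern was not counted. From day 1 the Kyoto difference was -0.87 ± 0.35 at day 3 (adjusted p = 0.782) and -0.78 ± 0.35 at day 14 (adjusted p = 0.462). These comparisons share the day 1 arrays. The day 3 difference was -0.52 without Kyoto day 3 replicate 1.

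Between the fed strains Slc16a1 differed by 0.69 ± 0.24, higher in Kyoto (4 against 5 arrays, 1.61-fold, adjusted p = 0.148), the smallest member p in that comparison. The weaker probe set of the gene gave -0.02 there, while from Kyoto day 1 it gave -0.78 at both later days. The probe sets thus differed on the strain and were close on the days in Kyoto. Slc19a1, the reduced folate carrier, was 8.01 and 7.78 in Kyoto day 1 and 7.42 and 7.10 in Kyoto day 14, a difference of -0.64 ± 0.28 (adjusted p = 0.456). Slc5a6, the carrier of biotin and pantothenate, ran from 8.38 to 9.26, with Kyoto day 1 replicate 2 the lowest. Slc16a7, a further monocarboxylate carrier, reached 8.04 on Kyoto day 14 replicate 1 and was under the filter.

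Carriers of neurotransmitters, creatine, taurine and betaine include transmitter carriers of nerve cells. Slc6a2 was at the floor, while Slc6a3, the dopamine transporter, and Slc18a3, which loads acetylcholine into vesicles, ran from the floor to 8.19 and to 7.78. Slc6a13, which takes up taurine and GABA in liver, was 9.61, 10.12 and 9.98 in Wistar controls, 8.89 and 9.30 in Wistar day 3, and 8.86, 8.32 and 9.98 in Wistar day 14. The Kyoto arrays read 10.21 and 9.81 at day 1, 9.39 and 9.81 at day 3, and 9.58 and 9.18 at day 14. Of the 5 fed Wistar arrays 4 lay below all controls, and the exception was Wistar day 14 replicate 3. The day 14 minus control difference was -0.85 ± 0.35 (adjusted p = 0.894). It was -1.31 without Wistar day 14 replicate 3 (adjusted p = 0.0775), -0.48 without replicate 2 and -0.74 without Wistar control 2.

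Slc6a6, the taurine transporter, had the largest strain difference of the members and the largest replicate SD, 0.74. The arrays read 8.07, 9.12 and 7.97 in Wistar controls, with 9.12 on Wistar control 2. It was 7.36 and 8.45 in Wistar day 3, and 7.28, 9.08 and the floor in Wistar day 14. Kyoto rats gave 8.14 and 8.39 at day 1, 8.62 and 8.38 at day 3, and 9.35 and 8.99 at day 14. The fitted difference between the fed strains was 1.01 ± 0.41 (adjusted p = 0.245), with 1 of the 5 Wistar arrays at the floor. With single arrays left out it ran from 0.74 without Wistar day 3 replicate 1 (adjusted p = 0.595) to 1.35 without Wistar day 14 replicate 2 (adjusted p = 0.0308), and it was 0.79 with the floor at the 40th percentile.

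Among carriers of inorganic ions, Slc4a4, the sodium bicarbonate cotransporter, had the smallest member p in several comparisons. Log2 signals were 7.51, 7.86 and 7.93 in Wistar controls, 8.77 and 8.75 in Wistar day 3, and 7.95, 8.07 and 7.92 in Wistar day 14. In Kyoto rats it was 7.29 and 7.88 at day 1, 7.68 and 7.12 at day 3, and 8.76 and 7.89 at day 14. Wistar rats were thus highest at day 3 and Kyoto rats at day 14, the latter through 1 of 2 arrays. Wistar day 3 differed from control by 0.99 ± 0.30 (1.98-fold, adjusted p = 0.248) and Wistar day 14 from day 3 by -0.78 ± 0.30 (adjusted p = 0.994). Without Wistar control 2 the first was 1.03. Kyoto day 14 differed from day 3 by 0.92 ± 0.33 (adjusted p = 0.945), which was 0.48 without Kyoto day 14 replicate 1, and from day 1 by 0.74 ± 0.33 (adjusted p = 0.458), or 0.30 without the same array. The interaction was 1.70 ± 0.45 (adjusted p = 0.834), and 1.26 without that array, and it did not pass. Between the fed strains the difference was -0.50 ± 0.22 (adjusted p = 0.307), and -0.29 without Kyoto day 14 replicate 2.

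Slc17a1, a phosphate and urate carrier, was lower in Kyoto, with 7.74 and 8.14 at day 1, 8.09 and 7.86 at day 3 and 8.60 and 8.37 at day 14, than in most fed Wistar arrays, with 9.03 and 8.95 at day 3 and 8.78, 8.82 and 8.35 at day 14. The difference was -0.59 ± 0.22 (adjusted p = 0.192). Wistar controls were 9.06, 8.04 and 8.62, the 8.04 on Wistar control 2. Another probe set of the gene gave -0.52 and the remaining one lay at the floor on all 14 arrays. The interaction was 0.85 ± 0.43 (adjusted p = 0.857).

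The other tested ion carriers were Slc26a1, which exchanges sulfate (9.65 to 10.72), Slc4a2, the chloride bicarbonate exchanger (8.03 to 9.02), Slc20a2, a phosphate carrier (7.62 to 9.24), Slc12a7, a potassium chloride cotransporter (7.68 to 8.94), and Slc8a1, the sodium calcium exchanger (from the floor to 8.76). Slc12a7 was 7.84 and 7.89 in Kyoto day 1, below all 8 Wistar arrays, a separation not counted over all features. In the fed strain comparison 6 of the 7 ion carriers were lower in Kyoto under all 3 scalings, with a median of -0.16. Slc4a1, the anion exchanger of red cells, ran from the floor to 7.67 on its stronger probe set and lay at the floor throughout on another. The red cell markers Hbb and Alas2 had summed log2 levels of 12.5 to 13.7 in controls and 13.3 to 14.0 in Kyoto day 1, and their part in Slc4a1 was not tested. Slc14a2, a urea transporter, ran from 7.21 to 8.28.

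Of the metal carriers, Slc40a1 encodes ferroportin, the iron exporter of hepatocytes and of liver macrophages. Values by array were 8.26, 8.65 and 8.60 in Wistar controls, 8.11 and 8.42 in Wistar day 3, and 7.50, 7.92 and 8.39 in Wistar day 14. Kyoto rats gave 9.15 and 8.63 at day 1, 8.53 and 8.67 at day 3, and 8.33 and 8.64 at day 14. Wistar day 14 was the lowest group and differed from control by -0.57 ± 0.26 (adjusted p = 0.894), by -0.80 without Wistar day 14 replicate 3, by -0.35 without replicate 1 and by -0.49 without Wistar control 2. A second probe set gave -0.40. The macrophage markers Clec4f and Lyz2 (2 of 5 with values) had a summed log2 level of 10.1 to 10.4 in Wistar day 14, 10.5 to 11.1 in Wistar controls, 10.3 on both Wistar day 3 arrays, 10.6 to 10.8 in Kyoto day 1, up to 11.1 in Kyoto day 3 and 10.7 to 11.1 in Kyoto day 14. Kyoto day 1, the group with the highest Slc40a1 mean, held the lowest single marker sum of the Kyoto arrays, 10.6. Their part in the Slc40a1 values was not tested.

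Slc11a2, the divalent metal transporter, had the narrowest span of group means of all tested members (0.20), with signals from 7.52 to 8.43, and another of its probe sets lay at the floor on 13 arrays. Slc41a2, a magnesium carrier, ran from 10.20 to 11.26.

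Read over the whole set in Wistar rats, the member medians lay near those of all features. The member shares at an unadjusted p under 0.05 by limma rest on 3 or 4 members each. No departure from the share of all features is read from such small counts. At day 3 against control 18 members were higher and 18 lower, with a median of 0.00 log2 against -0.04 over all features, and 4 (11.1%) had an unadjusted p under 0.05 against 10.5% of all features. The smallest adjusted p was 0.248. At day 14 the split was 17 to 19, the median -0.03 against -0.03, and 3 members (8.33%) stood against 5.19%, with a smallest adjusted p of 0.894. From day 3 to day 14, 15 were higher and 21 lower, the median was -0.04 against 0.01, and 4 members (11.1%) stood against 4.45%, with a smallest adjusted p of 0.994. Without quantile normalization the median of all features shifted by -0.14 log2 at day 3 against control on the authors' scale and by -0.15 with arrays centred on their medians. The member split there was 12 to 24 and 11 to 25. From day 3 to day 14 the centred arrays shifted it by 0.11 and gave 22 higher and 14 lower members. These splits therefore have no settled direction.

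In Kyoto rats, 14 members were higher and 22 lower at day 3 than at day 1, with a median of -0.10 against 0.02 over all features, and 19 to 17 on the authors' scale. One member (2.78%), Slc16a1, had an unadjusted p under 0.05, against 5.87% of all features, and the smallest adjusted p was 0.782. From day 1 to day 14 the split was 19 to 17, the median 0.04 against 0.00, and 5 members (13.9%) stood against 10.2%, with a smallest adjusted p of 0.152. From day 3 to day 14 the split was 19 to 17, the median 0.05 against -0.02 (17 to 19 on the authors' scale), and 2 members (5.56%) stood against 4.61%, with a smallest adjusted p of 0.945. All 6 tested bile acid and organic ion carriers, each by its strongest probe set, were higher at day 14 than at day 3. The differences ran from 0.13 to 0.94 with a median of 0.31 (from 0.04 on the authors' scale, again 6 of 6). Of the 6, 0 had an unadjusted p under 0.05 by limma. A second probe set of Slco2a1 went the other way (-0.27), and a second one of Slc22a7 gave 0.18.

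**Figure D4:**
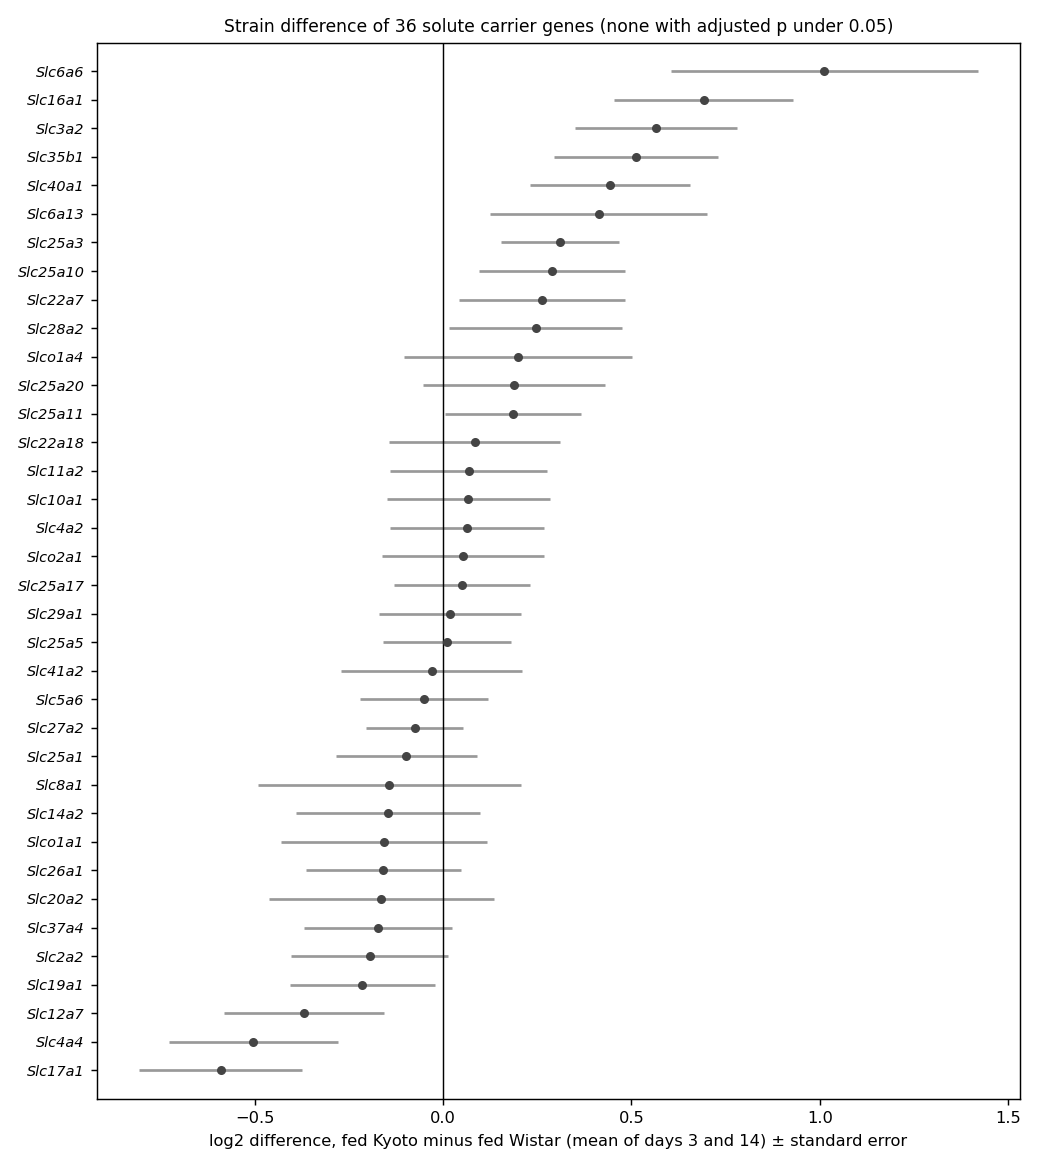
Log2 difference between fed Kyoto and fed Wistar rats (horizontal axis, mean of the day 3 and the day 14 difference, bars standard error) for the 36 tested solute carrier genes, in order of size. The points run from -0.59 for Slc17a1 to 1.01 for Slc6a6, 21 above and 15 below 0, and no adjusted p was under 0.05.

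Between the fed strains, 21 members were higher in Kyoto and 15 lower, with a median of 0.05 against 0.04 over all features. At an unadjusted p under 0.05 stood 6 members (16.7%), 4 higher and 2 lower, against 14.4% of all features, and the smallest adjusted p was 0.148. The 4 are Slc16a1, Slc3a2, Slc6a6 and Slc35b1, and the 2 are Slc17a1 and Slc4a4. In the strain by time interaction 20 were higher and 16 lower (16 and 20 on the authors' scale, which shifted the median of all features by -0.13), and 2 members (5.56%) stood against 5.19%, and the smallest adjusted p was 0.834. A difference in probe binding between the strains was not tested. Some cell type markers passed the threshold between the fed strains, but most did not. The 2 macrophage markers had a median strain difference of 0.70 with 1 of them past the threshold, and Cela1, the only pancreas marker with values, was higher in Kyoto by 1.64 and passed. Of the endothelial markers Kdr and Pecam1 1 was tested and did not pass (0.64), and 0 of the 4 stellate cell markers with values passed. None of the 6 hepatocyte markers or the 2 red cell markers with values passed either. The part of other cell types in the member differences was not tested.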

How the data were processed

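Liver RNA of 14 samples was hybridised to 1-colour Affymetrix arrays, 1 array a sample, grouped by strain and day from the source labels. Per the submitters' processing notes MAS5 was used, and the values the authors deposited are its linear intensity for each probe set. For MAS5, version and scaling target: not given in the sources used here. Values were log2 transformed over 4127 complete rows, quantile normalized (limma 3.58.1, R 4.3.3), and set to a floor at the 25th percentile. Each gene was represented by the probe set with the highest mean, giving 3181 features. The upper 60% by mean, 1909, entered 1 limma model of 6 group means (8 residual degrees of freedom, intensity trend), tested on simulated data. The number of arrays limits the precision. Platform symbols were used, and 89 member gene identifiers matched the reference table with 0 symbols changed. Promoters were aligned with Biopython 1.88.

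The members, substrate classes and lists were chosen with earlier results of these data known. Named by a fixed rule were members past the threshold, the 3 with the smallest p in each comparison, up to 4 with the highest mean in each class, a fixed set of liver transporters and genes at the floor. Other members are named to account for the set, and the promoter motif was chosen with the values known. Alternatives varied scaling, floor, filter, probe set rule, groups fitted, variance model and lot batch, and left out each array.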

Additional observations from a re-analysis of the deposited data

How the results depend on the processing

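The number of members past the threshold was 0 in every comparison. Of 153 recomputed counts, of such members or of genes at the floor, 147 were within 1.5 times the main count and 6 moved. Genes at the floor on all arrays numbered 5, 0 with the floor at the 10th percentile and 14 at the 40th. With no filter on mean signal 1 member passed from Kyoto day 3 to day 14, namely Slc4a7, a bicarbonate cotransporter named after its values were seen, which lay between the floor and 7.29 with a replicate SD of 0.05. With single arrays left out the count was 0 to 1 between the fed strains (1 is Slc6a6 without Wistar day 14 replicate 2) and 0 to 1 for Kyoto day 3 and day 14 against day 1 (1 is Slco1a4 without Kyoto day 1 replicate 2). It stayed 0 in the other comparisons.

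Of 568 values of the 31 named differences, 564 kept direction and side of the threshold, 3 passed (Slc6a6 at 1.35, Slco1a4 at 1.84 and 2.78) and 1 turned, Slco1a4 at -0.13 from Kyoto day 1 to day 3 without Kyoto day 1 replicate 1. Among all features, 62 passed between the fed strains, 103 with only the groups compared, 135 with array weights, 20 with a lot batch block, 21 with lot batch 1 only, 40 with the upper 40%, 1 with no filter and 12 to 58 with single arrays left out. Wistar day 3 against control gave 0, or 18 with array weights. No paired analysis was possible because the labels carry no replicate numbers. The alternatives with lot batch 1 only, arrays with blank rows as a block, and 2 arrays left out together were chosen after seeing the data. Signal over background limits what can be said of the 28 genes at the floor or under the filter.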
